A study of Mus musculus with 9 samples.

Results

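The CpGs described here measured lower in plasmablasts than in naive B cells and lower than in plasma cells. They were chosen by a rule on measured levels: coverage of 10 reads or more in all 9 libraries, a pooled level at least 20 percentage points lower in plasmablasts than in naive B cells, and at least 10 points higher in plasma cells than in plasmablasts. The pooled level is the share of methylated reads, in percent, over the 3 libraries of a group. The rule was met by 2242 CpGs, which is 0.629% of the 356320 CpGs that had enough reads and 5.28% of the 42476 CpGs that lost 20 points or more in plasmablasts. They are called plasmablast-low CpGs below. Of the other lost CpGs, 28730 stayed within 10 points in plasma cells (level kept) and 11504 were at least 10 points lower still (fell further).

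The study profiled splenic cells of female C57Bl/6J mice aged 10 weeks by reduced representation bisulfite sequencing, which reads methylation near MspI cut sites. Naive B cells, sorted as B220+ CD43-, came from untreated mice. Plasmablasts, sorted as B220mid CD138+, and plasma cells, sorted as B220low CD138+, were taken on day 3 after lipopolysaccharide (LPS), a bacterial cell wall component that drives B cells to divide and secrete antibody. Each group had 3 libraries, and the labels do not say whether these came from separate or pooled animals, so no p-value measures a known spread between animals. Permutation p-values measure only the spread between libraries, and p-values for single CpGs rest mostly on read counts and a spread shared across CpGs. Both LPS groups were defined by surface markers alone, and no expression values were used here to check them.

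DNA methylation at CpGs is copied to the new strand after each division by the maintenance methyltransferase, and it is lost when that copying lags or when TET enzymes oxidise the methyl group. Regaining it relies mainly on the de novo methyltransferases. Plasmablasts are the dividing stage that precedes the plasma cell, the antibody-secreting end of the lineage, and loss of methylation along that path is widely described.

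The promoters that could be placed show what such a CpG looks like, with the plasmablast-low CpG in capitals and all other bases in lower case, written 5′ to 3′ on the strand of the gene. Only 14 of the 2242 CpGs lay from 250 bases before to 50 after an annotated start site, 12 of these had their gene in the RefSeq promoter table (build GRCm38.p6), and 4 could be placed, because all 4 CpGs that the deposited table lists in each of these windows fell on a CG of the sequence. The whole window is given for G6bos, whose CpG is among the 5 promoter CpGs with the largest differences. The nearest bases are given for Arsg, which encodes a lysosomal arylsulfatase, for Col4a5, which encodes a basement membrane collagen chain, and for Trpd52l3.
G6bos: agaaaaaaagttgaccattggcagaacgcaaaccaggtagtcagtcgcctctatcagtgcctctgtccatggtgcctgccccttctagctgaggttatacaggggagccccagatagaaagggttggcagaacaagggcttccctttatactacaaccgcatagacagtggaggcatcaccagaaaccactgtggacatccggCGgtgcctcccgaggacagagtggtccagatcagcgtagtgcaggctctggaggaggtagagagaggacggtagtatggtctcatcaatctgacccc
Arsg: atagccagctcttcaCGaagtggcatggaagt
Col4a5: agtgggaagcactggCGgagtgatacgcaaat
Trpd52l3: ggCGccagacaatttggtg
The G6bos CpG, 46 bases before the start site (mm9 chromosome 17, position 35201335), measured 83.3%, 61.9% and 55.6% in naive B cells, 39.1%, 26.3% and 27.8% in the plasmablasts, then 50%, 50% and 64.3% in the plasma cells. All 3 plasmablast libraries were below all others, at 18 to 28 reads each. The Arsg CpG, 161 bases before its start site (chromosome 11, position 109404863), measured 95.7%, 94.4% and 93.8% in naive B cells, 65%, 78.1% and 71.9% in the plasmablasts, then 73%, 87.2% and 94.1% in the plasma cells, so plasma cell library 1 fell inside the plasmablast range. The Col4a5 CpG on the X chromosome, position 137909894, was at 28%, 33.3% and 35.3% in naive B cells, 21.1%, 5.56% and 0% in the plasmablasts, then 26.7%, 19.2% and 20.7% in the plasma cells, again with overlap of the last pair of groups. At the 3 other tested CpGs within the G6bos window, the mean level was 66.8% in naive B cells, 54.0% in the plasmablasts, then 51.6% in the plasma cells. In the Arsg window the 1 other tested CpG was at 95.3%, 67.8% and 72.6%, and in the Col4a5 window the 3 others averaged 28.0%, 25.7% and 23.8%. The other CpGs of these windows were thus higher in plasma cells than in plasmablasts at Arsg, and not at G6bos or Col4a5.

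Averaged over all 2242 CpGs, the level was 90.3% ± 0.474 in naive B cells, 61.4% ± 0.431 in the plasmablasts, then 75% ± 1.56 in the plasma cells (SD, n = 3 libraries each). The libraries measured 89.8%, 90.4% and 90.7%, then 60.9%, 61.7% and 61.6%, then 76.8%, 74.3% and 73.9%. The rule sets these averages, so they describe the choice and no test is given. The difference between plasma cells and plasmablasts had a median of 12.6 points and a range of 10 to 41.1 points. It was under 15 points at 1645 CpGs (73.4%), 20 points or more at 140, and 30 points or more at 11. Plasma cells mostly stayed below naive B cells: they were at least 10 points below at 1711 CpGs and at least 20 points below at 483, while they were above at only 11.

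**Figure D1:**
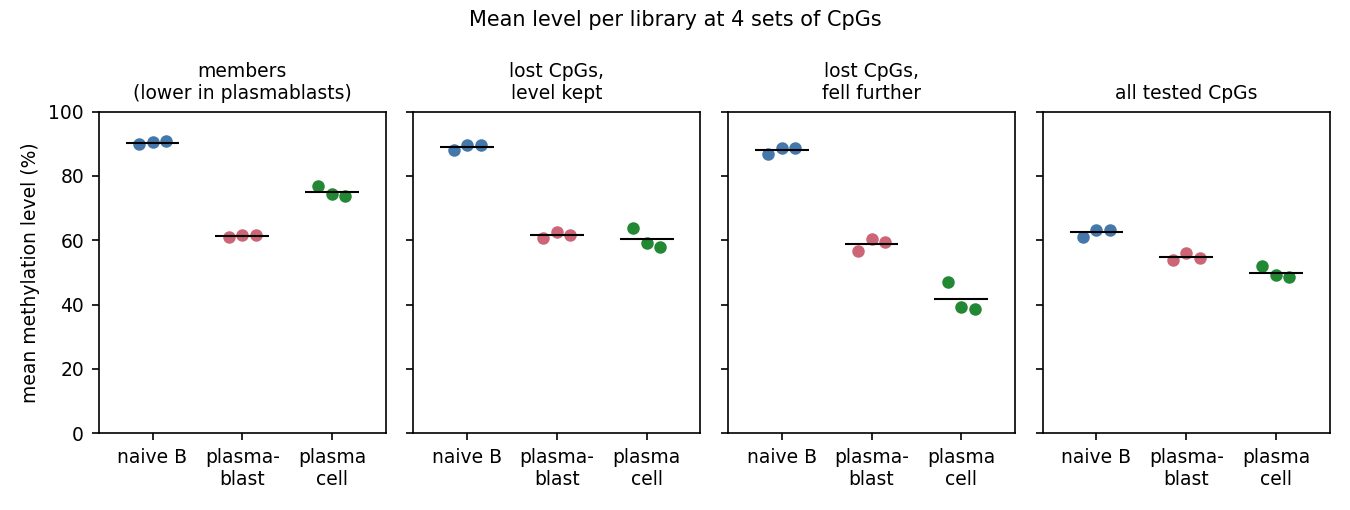
Mean methylation level (%) of each of the 9 libraries (points) and of each group (line) over the plasmablast-low CpGs, the lost CpGs that kept their level, those that fell further, and all tested CpGs. The plasmablast-low CpGs run from 90.3% to 61.4% to 75% by the rule, and over all tested CpGs the plasma cells are the lowest group, at 49.8%.

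The other lost CpGs began at like levels. Naive B cells averaged 89.0% ± 0.762 at CpGs that kept their level and 88.0% ± 1.07 at those that fell further, and plasmablasts 61.6% ± 0.823 and 58.8% ± 1.84 (SD, n = 3). Over all lost CpGs the plasma cell mean was 4.84 points below the plasmablast mean, and plasma cells were above plasmablasts at 32.3%. The plasmablast-low CpGs are the right-hand end of that distribution and are not set apart from it by a gap: 1320 lost CpGs lay between 8 and 10 points, 915 between 10 and 12, and 542 between 12 and 14. Just inside the limit of 10 points were CpGs assigned to Sparc, Tulp4 and Fkbpl, at 10 points each, and just outside were CpGs of Armc10, Cmklr1 and Rasl10a, at 9.99 points each. At the limit of 20 points for the loss, CpGs of Akap12, Bicc1 and Cadm2 were just inside, with losses of 20 points, and CpGs of Xrcc6bp1 and Lrrc48 just outside, at 19.98.

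**Figure D2:**
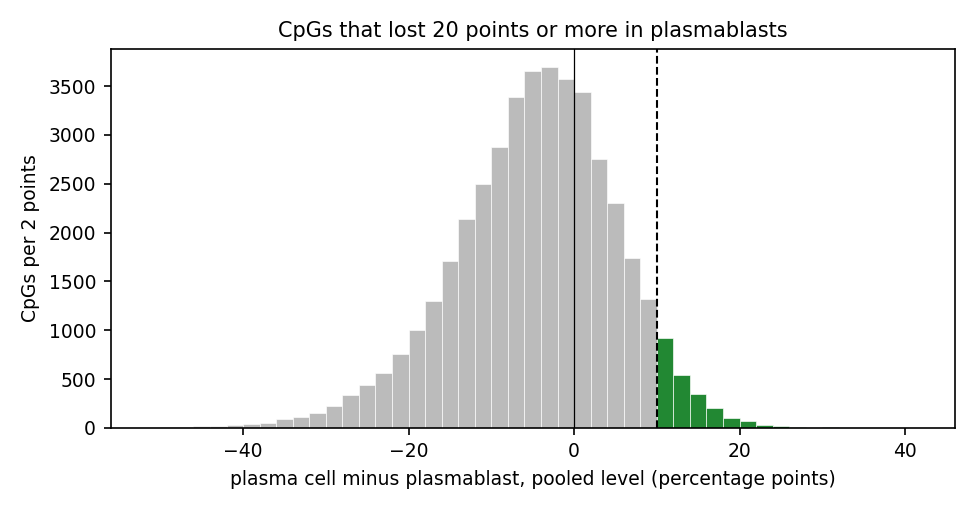
Number of CpGs per 2 points of pooled plasma cell minus plasmablast level, among the 42476 CpGs that lost 20 points or more in plasmablasts. The dashed line is the limit of 10 points, and the green bars right of it are the 2242 plasmablast-low CpGs, which join the rest without a gap.

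The plasmablast-low CpGs were read less deeply than other lost CpGs. The median sum of reads over the 9 libraries was 238, against 275 for all lost CpGs and 276 for all tested CpGs. With lost CpGs split by that sum into 4 classes of like size, the rule took 9.36% of the least read class, 5.91% and 4.08% of the middle ones and 1.84% of the most read. Per library, their median was 17 reads (plasma cell 2) to 36 reads (naive B cell 2).

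Across libraries, the plasmablast libraries were all below the naive B cell libraries at 2146 of the 2242 CpGs (95.7%, against 38.6% of all tested CpGs), all below the plasma cell libraries at 806 (36.0%, against 1.19%), and below both other groups at 799 (35.6%, against 0.922%). The rule used these contrasts, and nothing is read from the gap to the background. At the CpGs outside those 806, at least 1 plasma cell library lay at or below a plasmablast library. Plasma cell library 1 was the highest of its group at 934 CpGs. Leaving out any 1 of the 9 libraries in turn and applying the rule again kept 486 of the 2242 CpGs (21.7%) every time. The lowest share kept was without plasma cell library 1, at 1492 (66.5%), and the rule then chose 2370 CpGs. It chose 3522, 4567 and 3632 without plasmablast libraries 1, 2 and 3, and 3833 without plasma cell library 3.

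A quasi-binomial model over all tested CpGs, adjusted by Benjamini-Hochberg, called 2 of the 2242 CpGs higher in plasma cells than plasmablasts, requiring an adjusted p below 0.01 and 20 points or more between them. These were the only 2 calls in that direction among all tested CpGs (0.000561%). At an adjusted p under 0.01 without the 20 points, 3 of the 2242 were called (0.134%), against 5 of all tested CpGs (0.0014%). An unadjusted p under 0.05 was found at 415 of the 2242 (18.5%), against 1362 of all tested CpGs (0.382%). The number of calls with the 20 points depends on how the model's spread between libraries is set. With 1 common dispersion it was 4 of the 2242 (0.178%), against 5 of all tested CpGs (0.0014%). It was 0 with the dispersion prior fitted on all tested CpGs and 0 with limma on log2 ratios. It was 0 without any 1 plasmablast library and 1 without any 1 plasma cell library. Against naive B cells, the same model called 1933 (86.2%) lower in plasmablasts, where 10.4% of all tested CpGs were called. It called 408 (18.2%) lower in plasma cells, against 22.5% of all tested CpGs. The choice of these CpGs used the contrasts, and the counts are given as description only.

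The first of the 2 called CpGs was in an intron of E130308A19Rik (mm9 chromosome 4, position 59688194). It measured 96.3%, 97.8% and 88.9% in naive B cells, 11.8%, 12% and 20% in the plasmablasts, then 60%, 58.3% and 26.7% in the plasma cells, at 12 to 45 reads (adjusted p = 0.00794 in the quasi-binomial model). Plasma cell library 3 was near the plasmablasts and the other plasma cell libraries were far above them. The neighbour within 50 bases, close enough to share a read, was at 95.1%, 19% and 24.2% on average in naive B cells, plasmablasts and plasma cells, and 2 CpGs 51 to 1000 bases away were at 97.5%, 78.8% and 67.8%. The low level in plasmablasts was thus shared by the adjacent CpG, the higher level in plasma cells much less.

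The other called CpG lay 8.77 kb before the start site of Gng13, which encodes a G protein gamma subunit of taste and sensory cells (chromosome 17, position 25845348). Naive B cells measured 84.8%, 96.4% and 95%, plasmablasts 53.3%, 69.0% and 57.9%, and plasma cells 100%, 82.4% and 95.2%, at 15 to 33 reads (adjusted p = 0.00771). No plasmablast library reached a library of another group. The 2 CpGs within 50 bases were nearly flat, at 96.7%, 93.1% and 89.7%, and the 2 CpGs 51 to 1000 bases away fell from 82.6% to 60.1% to 34.0%.

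The largest difference of all was at a CpG 97.5 kb before the start site of Ube2e2, a ubiquitin-conjugating enzyme (chromosome 14, position 19823596), with 72.2%, 50% and 59.5% in naive B cells, 42.9%, 27.8% and 30.8% in the plasmablasts, then 63.6%, 83.3% and 80% in the plasma cells. Here the mean of plasma cells, 75.7% ± 10.5, was also above that of naive B cells, 60.6% ± 11.2 (SD, n = 3). An intronic CpG of Pla2g4d, a cytosolic phospholipase, measured 50%, 43.2% and 51.9%, then 21.7%, 30% and 30%, then 65.6%, 78.9% and 41.7%. The plasma cell libraries spread widely and enclosed the naive B cell levels.

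An exonic CpG of Hnf4a, a nuclear receptor of liver and gut, had plasma cells near the naive level: 87.0%, 88.2% and 85.7% in naive B cells, 43.8%, 61.5% and 55.6% in the plasmablasts, then 88.6%, 85.7% and 80.6% in the plasma cells. An intronic CpG of Cntnap2, a neuronal adhesion protein, was at 97.2%, 95.2% and 95.5%, then 46.2%, 57.1% and 41.2%, then 80.6%, 81.0% and 81.1%. In Tns1, which encodes the focal adhesion protein tensin, an intronic CpG was at 76.5%, 75% and 72.7%, then 22.2%, 34.6% and 31.2%, then 68.8%, 58.3% and 52.9%. In these 3 genes the plasma cell libraries were all above the plasmablast libraries, and the adjusted p between them was 0.0311 for Hnf4a, 0.0315 for Cntnap2 and 0.11 for Tns1 in the quasi-binomial model. The tested CpG 51 to 1000 bases from that of Tns1 went from 91.3% to 68.4% to 36.3%, lowest in plasma cells.

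**Figure D3:**
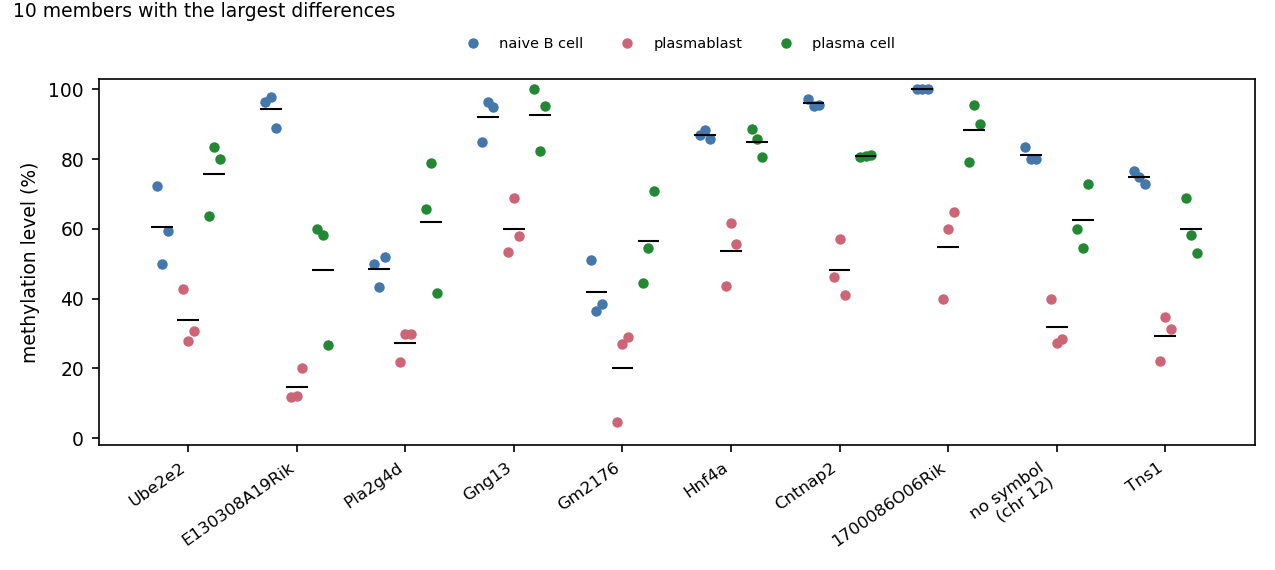
Methylation level (%) in each library (points) and group mean (lines) at the 10 CpGs with the largest plasma cell minus plasmablast difference among those whose plasmablast libraries lay below all others, ordered by that difference and labelled with the gene the authors assigned. The choice makes the plasmablast points lowest, and the plasma cell points of E130308A19Rik spread from 26.7% to 60%.

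Whether the pattern recurs was read in libraries that took no part in the choice. The rule was applied to 6 libraries, 2 per group, and the level was then taken in the 3 left-out libraries. Without the replicates numbered 1, 3570 CpGs met the rule with plasma cells 14.7 points above plasmablasts. In the left-out libraries the levels of these CpGs were 88.6% in naive B cells, 71.7% in the plasmablasts, then 71.2% in the plasma cells, a difference between the last pair of -0.442 points. Without the replicates numbered 2, 5512 CpGs chosen at 14.7 points measured 89.2%, 71.7% and 66.1%, a difference of -5.64 points. Without the replicates numbered 3, 5355 CpGs chosen at 14.8 points measured 89.7%, 70.9% and 64.8%, a difference of -6.11 points. Plasma cells were thus not above plasmablasts on average in any left-out set. They were above at 48.8%, 35.3% and 32.5% of the chosen CpGs, and 15.5%, 9.60% and 10.1% met the whole rule there.

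Naive B cells stayed above plasmablasts in the left-out libraries, by 16.9, 17.5 and 18.8 points, at 91.4%, 92.9% and 92.4% of the chosen CpGs. The loss in plasmablasts was therefore seen in libraries not used to choose the CpGs, at a smaller size than in those used, while the higher level of plasma cells was not. Over all tested CpGs the left-out plasma cell minus plasmablast differences were -2.02, -7.03 and -5.91 points. For lost CpGs that kept their level they were -1.94, -8.78 and -9.02, and for those that fell further -5.22, -16.8 and -16.7. The plasmablast-low CpGs therefore ranked above the other lost CpGs in each left-out set. The 3 sets share libraries with one another, and no test was made between them.

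**Figure D4:**
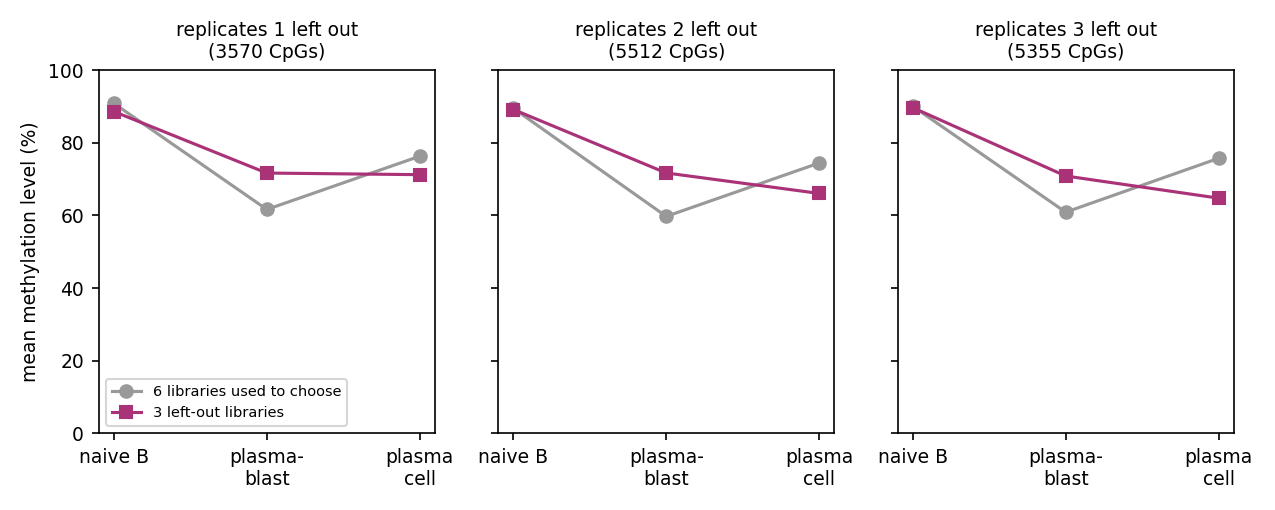
Mean methylation level (%) at CpGs chosen by the rule from 6 libraries (grey circles) and the level of the same CpGs in the 3 left-out libraries (purple squares), for each replicate number left out. Plasma cells stand 14.7 to 14.8 points above plasmablasts in the libraries used to choose, and at -0.442, -5.64 and -6.11 points in the others.

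Neighbouring CpGs gave a second measurement that the rule did not use. Reads were 50 bases long, so CpGs 51 to 1000 bases from a plasmablast-low CpG were counted in other reads. At 5875 such neighbours, none of them plasmablast-low, naive B cells measured 81.6%, 83.5% and 83.3%, plasmablasts 71.1%, 72.7% and 71.9%, and plasma cells 69.4%, 65.8% and 65.2%. All plasma cell libraries were below all plasmablast libraries. The difference of plasma cells from plasmablasts was -5.12 points and that of naive B cells from plasmablasts 10.9 points (exact two-sided permutation p = 0.1 for each, the smallest that this test can give with 3 against 3 libraries, so it cannot reach 0.05). The direction was that of all tested CpGs and not that of the chosen CpGs. Among the 1630 neighbours that the rule could not have chosen for lack of reads, the difference was -4.96 points.

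Neighbours of plasmablast-low CpGs fell slightly less in plasma cells than neighbours of other lost CpGs. That second set measured -6.26 points, so the gap was 1.14 points (exact permutation p = 0.1). Its size depended on the processing. With the reads of the neighbours summed in place of averaging their levels, the gap was 3.77 points and the difference at neighbours of plasmablast-low CpGs was -7.94 points. The gap was 1.71 points with 20 reads or more in each library and 0.753 points without plasma cell library 3. It narrowed with distance: 4.43 points for neighbours within 50 bases, where a read can cover both CpGs, 1.62 points at 51 to 300 bases, and 0.275 points beyond 300 and up to 1000 bases (exact permutation p = 0.7). Within 50 bases, plasma cells measured 76.0%, 73.0% and 72.0% and plasmablasts 74.7%, 76.2% and 75.7%, which overlap (exact permutation p = 0.3). Neighbours of plasmablast-low CpGs also began higher in naive B cells than neighbours of other lost CpGs. This starting difference was 1.05 points within 50 bases, 1.52 points at 51 to 300 bases and 10.2 points beyond 300 (77.1% against 66.9%). Its part in the narrowing of the gap with distance was not tested.

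**Figure D5:**
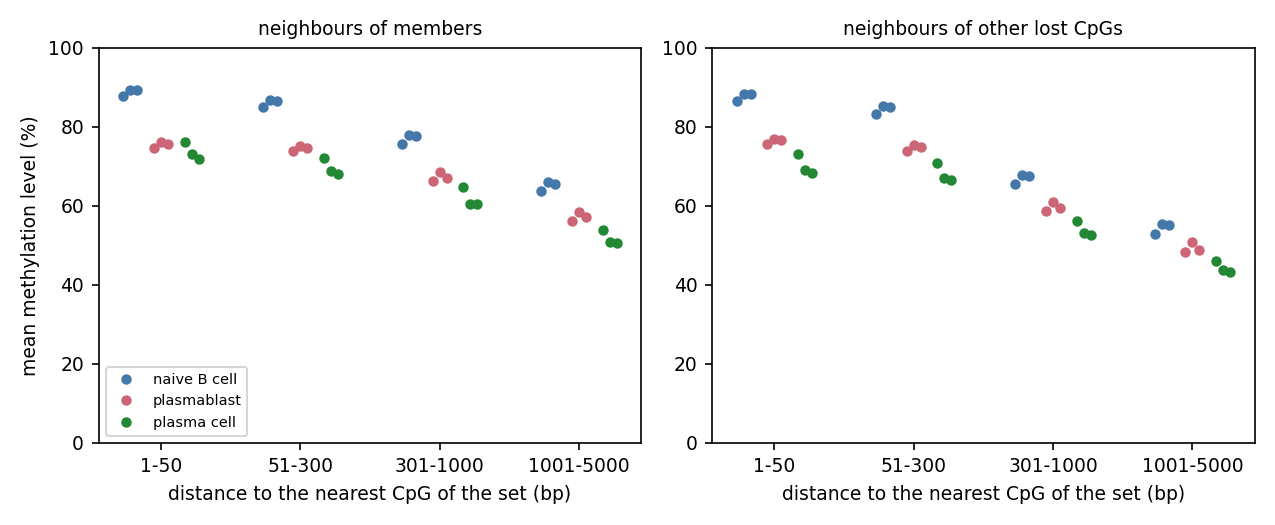
Mean methylation level (%) of each library (points) at neighbours of plasmablast-low CpGs (left) and of other lost CpGs (right), by distance in bp. From 51 bp outward the 3 plasma cell points lie below the 3 plasmablast points in both panels, and at 1 to 50 bp around plasmablast-low CpGs they overlap.

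By gene class, the intronic and intergenic shares were near those of all lost CpGs, the exonic share was higher and the promoter share lower. The rule took 7.11% of lost exonic and 3.96% of lost promoter CpGs, against 5.30% of intronic and 5.12% of intergenic ones. These figures concern the plasmablast-low CpGs. Of them, 47.0% were intergenic, 39.3% intronic, 9.99% exonic and 3.75% in promoters, which the authors' table sets from 2500 bases before to 500 after a start site. The shares were 48.5%, 39.1%, 7.42% and 5.00% of lost CpGs, and 34.0%, 34.4%, 16.0% and 15.5% of all tested CpGs. Their median distance to a start site was 25.4 kb, against 22.3 kb for lost and 9.53 kb for tested CpGs. They also differed in how many other CpGs of the table lay close by. No other lay within 100 bases of 17.7% of them, against 37.3% of lost CpGs, and 1 to 2 others lay within that distance of 68.7%, against 54.0%. The rule took 2.50% of the lost CpGs with no other within 100 bases, 6.72% of those with 1 to 2 and 8.46% of those with 3 to 5. The mean number was 1.40, against 1.02 for lost and 2.57 for tested CpGs. The 84 promoter CpGs started lower, at 82.9% ± 0.328 in naive B cells, 54.3% ± 1.01 in the plasmablasts, then 68.6% ± 1.38 in the plasma cells (SD, n = 3). They were found on every autosome and the X chromosome, which held 63.

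They were mostly single CpGs. Only 142 of the 2242 lay within 200 bases of another, in 70 runs. The longest runs held 3 CpGs. One spans 41 bases of an intron on chromosome 8 with no assigned symbol and averaged 95.9%, 99.2% and 100% in naive B cells, 68.8%, 63.1% and 59.8% in the plasmablasts, then 83.3%, 72.1% and 76.6% in the plasma cells. The other spans 42 bases of an intron of Cabyr, a sperm tail calcium-binding protein, and averaged 97.6% ± 0.238, 68.4% ± 3.51 and 82.2% ± 3.18 in the same order (SD, n = 3). In both runs the groups did not overlap, and in both the tested CpGs 51 to 1000 bases away were lowest in plasma cells, at 80.1% and 76.9%. A pair of CpGs 13 bases long and far upstream of Fbxo33, an F-box gene, went from 96.9% ± 1.05 to 67.1% ± 7.95 to 92.9% ± 9.45, and its 1 neighbour at that distance was at 96.5%, 80% and 80.5%.

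Besides G6bos, 4 more promoter CpGs were among the 5 with the largest differences. At Dysf, which encodes the muscle membrane repair protein dysferlin, a CpG 2.10 kb before the start measured 18.8%, 25% and 26.3% in naive B cells, 5.88%, 0% and 0% in the plasmablasts, then 29.4%, 14.3% and 27.3% in the plasma cells. At Ckm, the muscle creatine kinase gene, the levels were 80.5%, 69.0% and 75%, then 44%, 39.1% and 39.4%, then 59.5%, 64.7% and 61.7%. At Dfna5, which encodes the pore-forming protein gasdermin E, they were 92.9%, 100% and 95.5%, then 70.6%, 63.6% and 56.2%, then 77.8%, 90% and 88.9%. In these 3 genes the plasmablast libraries lay below all others, and each CpG met the rule without any 1 library. At Timp2, an inhibitor of matrix metalloproteinases, plasma cells measured 20.6%, 37.5% and 64.7% and overlapped the plasmablasts at 23.5%, 17.9% and 25%.

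The 1931 CpGs with an assigned symbol spread over 1628 genes, so most genes held 1. The most, 5 each, were assigned to Hsbp1 (a heat shock factor binding protein), Maf (a basic leucine zipper transcription factor) and Tfap2c (an AP-2 transcription factor). Over the 5 at Maf the mean was 76.1% ± 5.12 in naive B cells, 47.6% ± 7.62 in the plasmablasts, then 58.6% ± 5.23 in the plasma cells (SD, n = 3). At the 123 other tested CpGs of Maf more than 50 bases away it was 89.0% ± 1.07, 76.2% ± 0.886 and 70.4% ± 3.35. At Hsbp1 the same comparison gave 93.4% ± 1.66, 66.6% ± 5.07 and 79.2% ± 4.09 over its 5 CpGs, and 92.9% ± 1.32, 80.1% ± 1.18 and 76.2% ± 1.58 over 95 others. At Tfap2c it gave 83.1% ± 1.35, 54.5% ± 8.04 and 66.5% ± 2.20, and 50.1% ± 1.81, 42.8% ± 1.73 and 37.9% ± 1.56 over 152 others. In all 3 genes the remaining CpGs were lowest in plasma cells. Their CpGs lie as far as 600 kb from the start site, so the assignment by nearest start is loose. Atxn7l3b and Ghitm held 4 each.

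Among the genes of mature B cell identity, 6 of 1231 tested CpGs in 33 genes met the rule (0.487%, and 2.96% of the list's lost CpGs), 1 each in Pax5, Ebf1, Ikzf1, Cd22, Cd79b and Foxp1. The intronic CpG of Pax5, a transcription factor needed to keep B cell identity, measured 97.1%, 100% and 100% in naive B cells, 71.0%, 64.9% and 69.4% in the plasmablasts, then 76.9%, 90.5% and 89.3% in the plasma cells. The groups did not overlap there, while the 91 other tested CpGs of Pax5 averaged 61.8% ± 1.59, 50.4% ± 2.27 and 44.4% ± 1.28 (SD, n = 3). At Ebf1, an early B lineage factor, an intronic CpG was at 87.5%, 78.3% and 75%, then 57.1%, 30% and 30%, then 43.8%, 60% and 55%, with overlap between plasmablasts and plasma cells.

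In the plasma cell program, 5 of 511 CpGs met the rule (0.978%, and 4.72% of the list's lost CpGs). They were 2 at Cxcr4, a chemokine receptor that guides plasma cells to bone marrow, and 1 each at Prdm1, Txndc5 and Tnfrsf13b. The CpG assigned to Prdm1, the gene of the transcriptional repressor Blimp-1, lay 41.6 kb from the start and measured 95%, 91.3% and 100%, then 66.7%, 70.3% and 68.9%, then 84.1%, 78.4% and 72.7%. Its plasma cell libraries were all above the plasmablast libraries, by 10.2 points in pooled level. The CpG of Cxcr4 nearer its start measured 100%, 89.3% and 94.1%, then 20%, 61.5% and 30%, then 47.4%, 26.7% and 67.9%, and its plasmablast and plasma cell ranges overlapped almost wholly.

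The genes of the methylation machinery held 3 of 555 CpGs (0.541%, and 4.76% of the list's lost CpGs). The CpG of Tet2, an enzyme that oxidises methylcytosine, 30.4 kb before the start, fell from 56%, 71.0% and 52.2% to 15%, 5.26% and 5.56% in plasmablasts and was at 22.2%, 12.1% and 20% in plasma cells. Plasma cell library 2 lay inside the plasmablast range. At Dnmt3a, a de novo methyltransferase, an intronic CpG measured 95.7%, 97.6% and 100%, then 70.6%, 70.6% and 89.5%, then 90%, 100% and 77.8%, also with overlap. Homing receptors held 3 of 318 CpGs (0.943%, and 7.5% of the list's lost CpGs). Of these, 2 were the Cxcr4 CpGs already counted in the plasma cell program. The other was the promoter CpG of the chemokine receptor Ccr6, 138 bases after its start. It measured 68.4%, 94.6% and 63.3%, then 30.8%, 9.52% and 15.4%, then 50%, 36.8% and 29.4%. Naive B cells stood far above both LPS groups at Ccr6, and plasma cell library 3 lay below plasmablast library 1.

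The secretion and unfolded protein response genes held 4 of 719 CpGs (0.556%, and 6.25% of the list's lost CpGs). Proliferation genes held 3 of 639 (0.469%, and 5.88% of the list's lost CpGs). At Sec23b, a coat protein of vesicles that leave the endoplasmic reticulum, the levels were 50%, 56.8% and 63.6%, then 26.7%, 38.7% and 27.8%, then 50%, 54.5% and 39.4%. At the cyclin gene Ccnd3 they were 100%, 97.7% and 96.4%, then 70.4%, 78.1% and 81.8%, then 86.7%, 87.1% and 94.4%. The plasmablast libraries were below all others at both. Hox and Polycomb developmental genes held 10 of 2544 CpGs (0.393%, and 8.06% of the list's lost CpGs). Of these, 2 lay in Pax2, a kidney developmental factor. Another was assigned to Pax6, an eye developmental factor, and lay 82.1 kb before its start site. Imprinted genes held 2 of 719 (0.278%, and 3.1% of the list's lost CpGs), in Inpp5f and Trappc9.

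No CpG of the TLR4 and NF-kB response genes met the rule, out of 486 tested and 96 lost. TLR4 is the receptor that LPS binds. Among genes that mark other cells, T cell genes held 0 of 196 CpGs and myeloid genes 0 of 121. NK cell genes held 2 of 148 (1.35%), both at Eomes, a T-box factor of NK and effector T cells. Only 6 CpGs of that list were lost. Erythroid and stem cell genes held 2 of 387 (0.517%, and 5.13% of the list's lost CpGs), at Kit and Gata1. The share over the whole table was 0.629%, and no list was tested against it.

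In the authors' deposited table of CpGs that differ between plasmablasts and naive B cells, 717 of the plasmablast-low CpGs were listed (32.0%, against 3.31% of all tested CpGs and 27.8% of lost CpGs). In the authors' deposited table for plasma cells and naive B cells, 174 were listed (7.76%, against 15.3% of all tested and 67.3% of lost CpGs). Of the 717, 545 were in the plasmablast table only and 172 in both. The rule used both contrasts, so these shares describe the choice. The other 1523 (67.9%) were in neither table.

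The libraries also differed where almost nothing is methylated, and the plasmablast and plasma cell groups cannot be told apart from that difference. At the 78187 CpGs whose mean level was below 5%, the plasmablast libraries measured 2.70%, 6.11% and 2.08% and the plasma cell libraries 1.13%, 1.16% and 1.07%, with naive B cells at 0.749%, 3.13% and 2.63%. Plasmablasts were higher than plasma cells there, which is the opposite direction to the plasmablast-low CpGs. With each library's own level at those CpGs subtracted, 3185 CpGs met the rule and 3 were called. Read totals ran from 16037172 to 29948088 per library, and limits from read counts cover counting error only.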

How the data were processed

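Methylation was read in 9 libraries of 3 groups, taken from GEO's labels. Per the labels' protocols, MspI-cut, bisulfite-treated DNA was amplified by PCR and sequenced as single-end reads. Per the submitters' processing notes, Bismark and Bowtie2 were used with build mm9 (versions: not given in the sources used here). Counts of methylated and unmethylated reads per CpG and library, and the level as a fraction, were deposited by the authors. The fraction was not used. Gene symbol, class and distance to the start site are the authors'.

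The CpGs described and the gene lists were chosen with earlier results of these data known. Levels were computed from the counts as percentages. Each CpG with 10 reads or more in all libraries was fitted with a quasi-binomial model (Python 3.11.15, numpy 2.4.6, scipy 1.17.1), 1 level per group, with the Pearson dispersion moderated by limma 3.58.1 (R 4.3.3), not below 1, an F test and Benjamini-Hochberg adjustment over all 356320. A call needed an adjusted p under 0.01 and 20 points.

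The model was changed after results had been seen. The dispersion prior was first fitted on all tested CpGs, which gave 3.96 prior degrees of freedom, called 0 of the 2242 CpGs higher in plasma cells and 421 lower in plasmablasts, and did not recover changes placed in simulated data. The prior was then fitted on CpGs with a mean level of 20 to 80%, which gave 358 prior degrees of freedom. With that prior, a CpG's own spread between libraries counted little in its p-value. The first version is kept as an alternative chosen after seeing the data. The simulated counts had the same spread setting at every CpG, so they cannot decide which prior suits the real counts. In the simulated data, calls by adjusted p without the 20 points included false ones, so counts by adjusted p alone are weaker evidence.

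Neighbours needed 5 reads in every library. Their mean levels were compared over libraries by exact two-sided permutation tests. Genes named are those with the 10 largest differences among CpGs whose plasmablast libraries lay below all others, the 5 genes with most CpGs, up to 2 genes per list, the 5 promoter CpGs with the largest differences, runs within 200 bases, called CpGs, and those nearest each limit. RefSeq promoters (GRCm38.p6) were matched by gene identifier, chromosome and strand. Replicate libraries correlated at 0.956 to 0.986 over CpG levels and shared identical counts at up to 1.29% of CpGs, so each counted as 1 sample.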

Additional observations from a re-analysis of the deposited data

How the results depend on the processing

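The count of plasmablast-low CpGs, 2242, moved to 368 with 20 reads or more in each library (of 113507 then tested) and to 441 at limits of 25 and 15 points. It was 2429 with unweighted means. Leaving out single libraries gave 2225 to 4567 CpGs, the lowest without naive B cell library 2 and the highest without plasmablast library 2. The calls of higher level in plasma cells, 2, came to 0 with 20 reads, 4 with 1 common dispersion, 0 with limma on log2 ratios and 0 to 2 without single libraries, with 0 when any plasmablast library was left out and 1 when any plasma cell library was. The dispersion prior fitted on all tested CpGs, chosen after seeing the data, gave 0 such calls (336 at an unadjusted p under 0.05), and 0 among all tested CpGs. It called 421 of the 2242 lower in plasmablasts, where 8528 of all 356320 tested CpGs were called. The prior used called 1933 of the 2242 and 10.4% of all tested CpGs. Without single libraries the rule chose a new set each time, so these counts are not of the same CpGs. Calls lower in plasmablasts ran from 1474 of 2225 CpGs (without naive B cell library 2) to 3347 of 3833 (without plasma cell library 3). Fewer libraries or CpGs change what the rule picks, and the cause of the other changes was not tested.

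In left-out libraries the plasma cell minus plasmablast difference averaged -4.06 points (-6.11 to -0.442 by replicate number) and naive minus plasmablast 17.8 points (16.9 to 18.8, and 19.5 at limits of 25 and 15 points). Pairing by replicate number was not seen in the levels. Deviations of libraries with the same number correlated at -0.0287 to 0.0302, and those with other numbers at -0.0368 to 0.0419. Of the libraries, 3 of 9 correlated best with their own number. The labels do not say whether plasmablasts and plasma cells of the same number came from the same mouse. The correlations cannot decide this, because counting error at single CpGs also lowers them. With the number as a replicate block, calls were 2 and 1866. Over neighbours, adding the block left the differences unchanged, at -5.12 points for plasma cells minus plasmablasts and 10.9 for naive minus plasmablasts. Plasma cells minus naive stayed at -16.0 points. No p-value is given with the block, because the labels do not say that the number pairs the libraries. Without it, the exact two-sided permutation test gave p = 0.1 for each difference, and this test cannot go below 0.1. Of 496 alternatives for the 62 named CpGs, 495 kept plasma cells above plasmablasts, and none was below. The exception was a CpG of Tfap2c (chromosome 2, position 172348173), at a difference of 0 without plasma cell library 3 against 12.6 points with it. All 62 were chosen for plasma cells above plasmablasts, and the alternatives reuse the same reads. Their direction was therefore largely set by the choice, and the count is description only.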
